A study of Mus musculus with 3 samples.

Results

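The 42 collagen genes examined here are the autosomal protein-coding mouse genes whose symbol is Col, a number, the letter a and a number. They were taken by symbol, and not by any peak value, from the 20560 autosomal protein-coding genes of the RefSeq table. A peak of 5-hydroxymethylcytosine (5hmC, the oxidised form of 5-methylcytosine that TET enzymes make) belonged to a gene when its midpoint lay in the gene span or within 5 kb of it. The X-linked Col4a5 and Col4a6 fall outside the rule, and both had 0 listed peaks.

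The series holds 3 mouse bone marrow samples in which 5hmC was mapped by glucose tagging, biotin capture and sequencing. Leukaemia samples (NIDF-AML, 2 samples) held acute myeloid leukaemia cells that carry mutant FLT3 (FLT3-ITD), mutant DNMT3A (R882H), mutant IDH2 (R140Q) and NPMc, which together induced the disease. The remaining sample was normal bone marrow (1 sample). The labels name no strain, age, vector or number of animals. Peak lists were at hand for the 2 leukaemia samples. Their 223267 lines were identical, and they were counted as 1 list of 208468 distinct peaks. In both headers index 4 is given as the treatment library, set against index 5 in one list and index 6 in the other. The sources used here do not tie an index to a sample, so each value below belongs to the index 4 library, which may be leukaemia or normal marrow. What index 5 and index 6 hold is not given either, so a control may be another sample of the series. A listed peak is a site called in index 4 against its control, and a site equal in both may go unlisted. Why different controls go with identical lines is not known. There is no replicate, and no difference between leukaemia and normal marrow can be read from these values. The lists carry no score and the read depth is unknown, so a gene with 0 peaks is a gene at which none was listed. In bulk marrow, more cells with the mark and more mark per cell cannot be told apart.

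Collagens are secreted or membrane proteins whose chains wind into a rope-like helix built on a repeat with glycine at every turn. Fibrillar collagens give bone, skin and tendon their strength, type IV collagen forms the sheet of basement membranes, and other classes link, coat or anchor these structures. In marrow they are made mainly by osteoblasts, fibroblast-like stromal cells and vessel walls rather than by blood cells. In gene bodies 5hmC is known to accompany transcription in many tissues, which is background here and was not measured.

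Peaks were spread very unevenly over the family. Of the 42 genes, 34 (81.0%) had at least 1 peak, against 76.1% of all autosomal protein-coding genes. Collagen genes are long, with a median span of 110 kb (7.11 to 420 kb) against 17.6 kb over all autosomal protein-coding genes. Each was therefore set against its 200 genes of like span, the autosomal protein-coding genes nearest in span with collagens left out. On average 86.7% of those had a peak. The 42 genes held 393 peaks in all, 391 different ones because 2 peaks each count for 2 neighbouring genes. The means of their genes of like span add up to 752.5, which gives a ratio of 0.522 (exact Poisson interval 0.472 to 0.577). Such intervals cover counting error only and treat peaks as independent. A median collagen gene had 3 peaks, where the median for genes of like span was 9.75.

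Peak numbers ran from 0 to 52 per gene. Genes of like span varied widely too: those of Col4a2 had a median of 14 peaks and quartiles of 5.75 and 35. There were 13 genes with 10 or more peaks, 4 with 5 to 9, 17 with 1 to 4, and 8 with 0. The 5 genes with the most peaks, Col4a2, Col23a1, Col4a1, Col15a1 and Col11a2, held 195 of the 393 (49.6%). Above the median of their genes of like span lay 15 collagen genes (35.7%), where the same measure over all autosomal protein-coding genes gave 44.9%. Below it lay 27 (64.3%), against 43.5% of all genes. At or under the 10th percentile of genes of like span lay 11 of the 42 (26.2%), the 8 genes with 0 peaks together with Col4a3, Col4a4 and Col6a6. Over all genes, which are of every span, the share was 24.5%. A gene with 0 peaks falls there whatever its span. Of all genes 76.1% had a peak, against 86.7% on average of the collagens' genes of like span. The shares of 26.2% and 24.5% are thus not matched in span, and no likeness is read from them. At or over the 90th percentile was 1 collagen gene, Col11a2, where 9.21% of all genes lie.

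**Figure D1:**
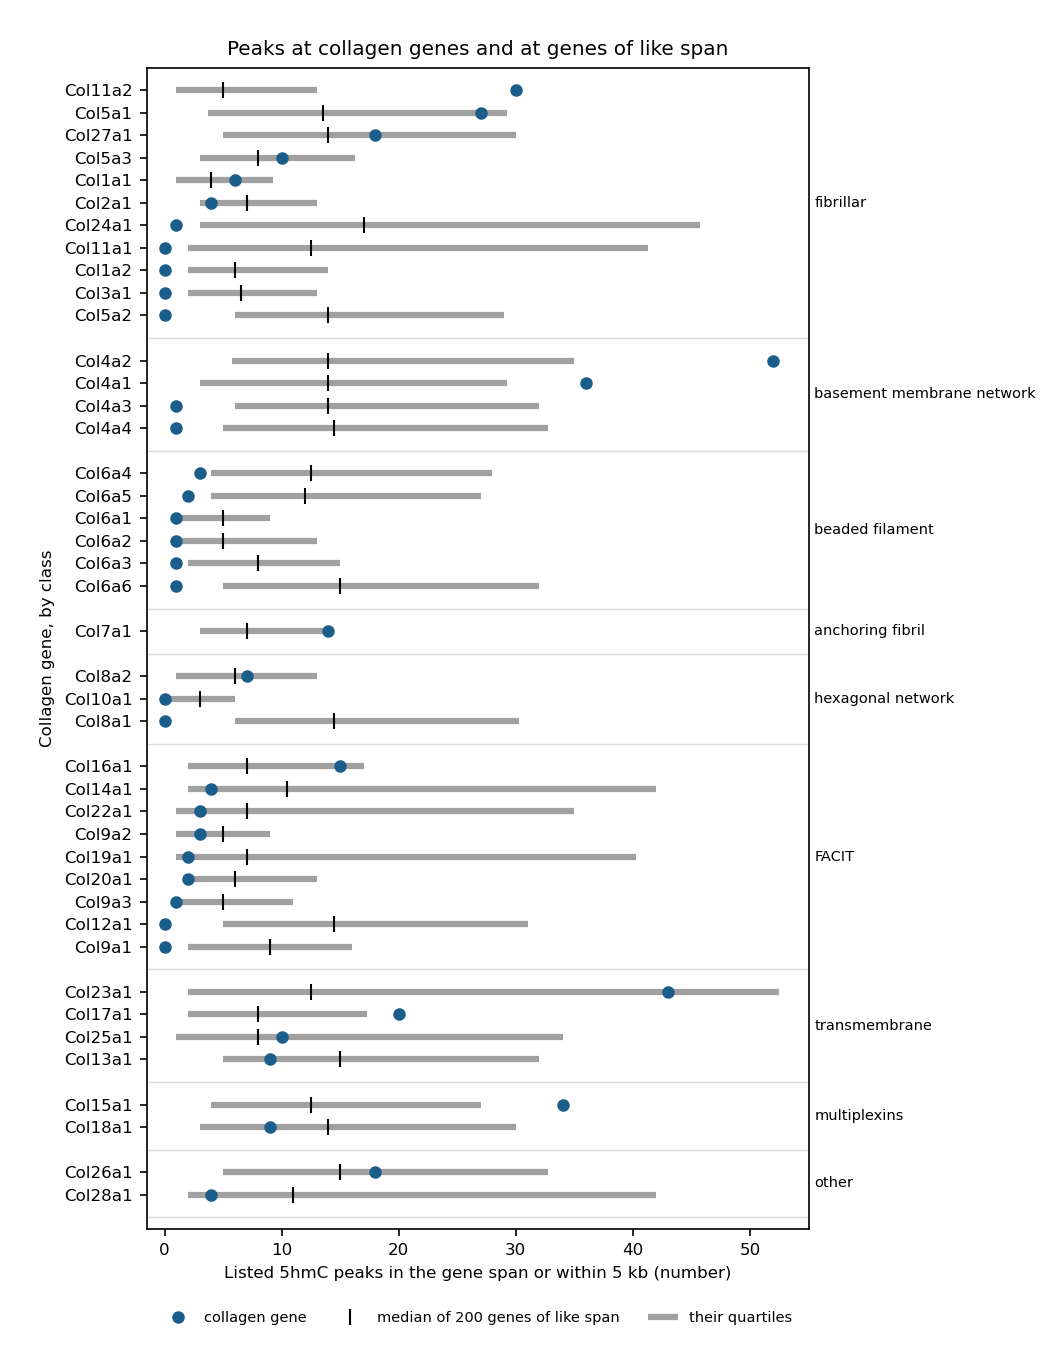
Number of listed 5hmC peaks in the span or within 5 kb of each of the 42 collagen genes (blue points), with the median (black ticks) and quartiles (grey bars) of the 200 genes of like span, grouped by collagen class. Col4a2 has the most with 52, and 8 genes sit at 0, left of their grey bars or at the lower edge.

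The type IV genes are built as divergent pairs, each pair starting from a shared region between them, and the pairs stood far apart. Col4a1 and Col4a2 encode the chains of the collagen found in nearly all basement membranes. Col4a2, on chromosome 8 (11312805 to 11449287), had 52 peaks (exact Poisson interval 38.8 to 68.2), where 83% of its genes of like span had fewer. Col4a1, beside it (11198423 to 11312889), had 36 peaks (25.2 to 49.8), with 80% of its genes of like span having fewer. Peaks ran along both bodies, 49 of them inside the span of Col4a2 and 35 inside that of Col4a1. The other pair, Col4a3 and Col4a4 on chromosome 1, encodes chains of the kidney and inner ear basement membrane. Col4a4 (82448419 to 82587034) and Col4a3 (82586921 to 82722059) had 1 peak each, although their spans of 139 and 135 kb are as long as those of the first pair. Of genes of like span, 87.5% had more than Col4a4 and 90% more than Col4a3. The 4 genes together had a ratio of 0.942 (0.757 to 1.16), which hides this split, and without Col4a2 it was 0.541 (0.383 to 0.743).

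The shared start of Col4a1 and Col4a2 itself carried no peak. The 300-base windows around their starts (250 bases before and 50 after, from RefSeq, build GRCm38.p6) overlap each other and lie on opposite strands. They are printed to show how rich they are in CpG, the dinucleotide at which most 5-methylcytosine and hence most 5hmC sits, with each CpG in capitals. Col4a1 has 37 CpG in chr8:11312777-11313076 on the minus strand, the most of any collagen window, and Col4a2 has 33 in chr8:11312555-11312854 on the plus strand.
Col4a1: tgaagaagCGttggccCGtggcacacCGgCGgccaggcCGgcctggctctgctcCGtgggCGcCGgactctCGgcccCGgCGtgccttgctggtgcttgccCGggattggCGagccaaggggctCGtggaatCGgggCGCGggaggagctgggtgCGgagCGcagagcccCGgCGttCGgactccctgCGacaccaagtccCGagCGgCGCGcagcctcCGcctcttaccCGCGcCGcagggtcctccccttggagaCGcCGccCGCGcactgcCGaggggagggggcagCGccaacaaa
Col4a2: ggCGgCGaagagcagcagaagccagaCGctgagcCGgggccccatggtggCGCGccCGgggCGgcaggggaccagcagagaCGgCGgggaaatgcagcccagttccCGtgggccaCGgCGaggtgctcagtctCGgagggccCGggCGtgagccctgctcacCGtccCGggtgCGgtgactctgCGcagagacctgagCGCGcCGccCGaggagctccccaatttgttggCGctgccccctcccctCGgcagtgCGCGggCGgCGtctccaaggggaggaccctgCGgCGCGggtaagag
The nearest peak midpoint lay 2017 bp from the start of Col4a1 and 2038 bp from that of Col4a2.

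The 11 fibrillar genes held 96 peaks, a ratio to their genes of like span of 0.541 (exact Poisson interval 0.438 to 0.660). Without Col11a2 it was 0.389 (0.301 to 0.494). Chains that assemble into 1 protein differed in their number of peaks. Type I collagen, the main protein of bone, is built from the products of Col1a1 and Col1a2. Col1a1, on chromosome 11 (94936224 to 94953042), had 6 peaks (exact Poisson interval 2.20 to 13.1), all inside its 16.8 kb, or 0.357 per kb. Col1a2, on chromosome 6 (4505618 to 4541543), had 0 over 35.9 kb, and 85.5% of its genes of like span had more. Type V collagen, which sets the thickness of type I fibrils, showed the same kind of spread. Col5a1 on chromosome 2 (27886381 to 28039510) had 27 peaks (17.8 to 39.3), Col5a3 on chromosome 9 had 10 and Col5a2 on chromosome 1 had 0. Type XI collagen belongs to cartilage, and its chains lay at both ends of the class, the low end shared with Col1a2, Col3a1 and Col5a2. Col11a2 had 30 peaks and Col11a1 had 0, while Col2a1, the main cartilage collagen, whose product also joins type XI molecules, had 4.

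Col11a2 was the collagen gene farthest above its genes of like span. It lies on chromosome 17 (34038919 to 34066684), in the major histocompatibility region beside Rxrb. Its 30 peaks (exact Poisson interval 20.2 to 42.8) compare with a median of 5 at genes of like span, 98% of which had fewer. Its body held 24 peaks in 27.8 kb, or 0.864 per kb, the highest density of the 42, and 2 of its 30 peaks lay inside Rxrb. The surroundings were rich in peaks too, with 347 per Mb in the 500 kb on each side, against a median of 137 per Mb at autosomal protein-coding genes. When its comparison genes were also alike in flank density (5 equal classes), Col11a2 had more peaks than 92% of them. Peaks lay within 2 kb of its start (3 of them), the nearest at 370 bp, but none overlapped the start window itself.

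Col11a1, Col3a1 and Col5a2 lay in long stretches without peaks. The nearest peaks to Col11a1, on chromosome 3 (114030479 to 114220756), were 1194 kb before it and 644 kb after it, so that it sat in 2028 kb with none listed. Col3a1, which encodes the fibrillar collagen of vessels and reticular tissue, and Col5a2 are neighbours on chromosome 1 (45311538 to 45349706 and 45374331 to 45503282). Both lay in a single peak-free stretch of 909 kb. Col1a2 sat in one of 228 kb, with the nearest peak 8.54 kb past its end. Of genes of like span, 81% had a peak for Col11a1, 86% for Col3a1 and 92.5% for Col5a2. Of the remaining fibrillar genes, Col27a1 on chromosome 4 (63214009 to 63334991) had 18 peaks (10.7 to 28.4) and Col24a1, over 260 kb, had 1.

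Start windows of Col1a2, Col3a1 and Col11a2 are printed, again with CpG in capitals, because these genes with 0, 0 and 30 peaks differ in CpG but none has a peak in the window. Col1a2 (chr6:4505368-4505667, plus strand) holds 13 CpG, Col3a1 (chr1:45311288-45311587, plus strand) holds 0 and Col11a2 (chr17:34038888-34039187, plus strand) holds 16.
Col1a2: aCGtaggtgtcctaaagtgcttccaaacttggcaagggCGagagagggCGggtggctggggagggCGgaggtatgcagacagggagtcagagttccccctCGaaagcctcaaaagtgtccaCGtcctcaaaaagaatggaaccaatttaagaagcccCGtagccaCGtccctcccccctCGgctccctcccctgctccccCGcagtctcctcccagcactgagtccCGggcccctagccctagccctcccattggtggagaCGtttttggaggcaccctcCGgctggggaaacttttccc
Col3a1: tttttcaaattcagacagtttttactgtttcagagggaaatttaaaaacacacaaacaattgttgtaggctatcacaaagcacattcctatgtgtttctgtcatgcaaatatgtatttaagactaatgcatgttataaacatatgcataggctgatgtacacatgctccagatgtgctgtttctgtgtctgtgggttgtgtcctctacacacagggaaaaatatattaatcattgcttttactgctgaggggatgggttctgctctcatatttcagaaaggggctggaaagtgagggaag
Col11a2: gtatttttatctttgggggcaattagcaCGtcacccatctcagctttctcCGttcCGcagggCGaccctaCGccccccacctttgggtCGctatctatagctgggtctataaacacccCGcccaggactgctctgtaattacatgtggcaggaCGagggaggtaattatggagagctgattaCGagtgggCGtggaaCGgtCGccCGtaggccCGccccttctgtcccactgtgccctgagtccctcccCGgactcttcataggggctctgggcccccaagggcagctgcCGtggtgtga
Over the 33 collagen genes with such a window, the 12 with 10 or more peaks had a median of 21.5 CpG (5 to 37). The 6 with 0 peaks had a median of 7.5 (0 to 13), so the ranges overlap. Col17a1 with 5 CpG and Col15a1 with 8 had 20 and 34 peaks.

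The type VI genes had the lowest ratio of the 9 classes. Type VI collagen forms beaded filaments around muscle and other cells. All 6 genes had a peak, but only 1 to 3 each: Col6a4 had 3, Col6a5 had 2, and Col6a1, Col6a2, Col6a3 and Col6a6 had 1. Their 9 peaks compare with summed means of 92.3 at genes of like span, a ratio of 0.0975 (exact Poisson interval 0.0446 to 0.185), and all 6 were below the median. The neighbours Col6a4, Col6a5 and Col6a6 on chromosome 9 did not lie in a peak desert. Their flanks held 218, 213 and 147 peaks per Mb, above the median of 137 per Mb, and with flank density matched 90.5 to 92.5% of genes of like span had more peaks than each of them. Col6a1 and Col6a2, which lie 85161 bp apart on chromosome 10, had flanks of 90 and 84 per Mb.

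FACIT collagens coat or bridge fibrils, and this class too had few peaks. Its 9 genes held 30 peaks, against summed means of 155 at genes of like span, a ratio of 0.193 (exact Poisson interval 0.130 to 0.275). Of those, 15 were at Col16a1 (chromosome 4, 130047817 to 130099277; exact Poisson interval 8.40 to 24.7), the only one of the 9 above the median of its genes of like span. With comparison genes alike in flank density too, 4 of the 9 were above, Col9a2, Col19a1 and Col22a1 being the others. Without Col16a1 the ratio by span was 0.104 (0.0583 to 0.172). Col14a1 had 4, Col9a2 and Col22a1 had 3, Col19a1 and Col20a1 had 2 and Col9a3 had 1. Col9a1 and Col12a1 had 0. Type IX collagen of cartilage thus had 0, 3 and 1 peaks at its genes for the 3 chains. The single peak of Col9a3 was inside the neighbouring Ogfr, and 1 of the 3 of Col9a2 was inside Zmpste24. The hexagonal network collagens of the eye and growth plate had 7 peaks at Col8a2 and 0 at Col8a1 and Col10a1, a ratio of 0.201 (0.0806 to 0.413). Of the 7 at Col8a2, 3 lay inside the neighbouring Adprhl2.

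Membrane-spanning collagens and the multiplexins, which carry heparan or chondroitin sulphate in vessel walls, were nearer to genes of like span. Col23a1 on chromosome 11 (51289679 to 51583925) had 43 peaks (exact Poisson interval 31.1 to 57.9), Col17a1 20 (12.2 to 30.9), Col25a1 10 and Col13a1 9. Col17a1, the collagen of the hemidesmosomes that hold epithelium down, lies on chromosome 19 (47646341 to 47692042) and had 0.394 peaks per kb of body, second in density to Col11a2. Together the 4 genes had a ratio of 0.866 (0.689 to 1.07), an interval that includes 1. Without Col23a1 the ratio was 0.611 (0.435 to 0.836), so the value rests largely on that gene. Col15a1 on chromosome 4 (47207655 to 47313167) had 34 peaks (23.5 to 47.5), against a median of 12.5 at genes of like span. Col18a1, whose product is the source of endostatin, had 9 against 14, and the ratio of both genes was 1.04 (0.755 to 1.40), against 0.428 (0.196 to 0.813) for Col18a1 alone. Col7a1, which makes the anchoring fibrils of skin, had 14 peaks against 7, with 6 of them outside its span and 3 inside neighbouring genes. Its ratio was 1.58 (0.866 to 2.66). Col26a1 on chromosome 5 (136741759 to 136883376) had 18 (10.7 to 28.4) and Col28a1 had 4, a ratio of 0.423 (0.265 to 0.641), against 0.152 (0.0414 to 0.389) for Col28a1 alone.

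**Figure D2:**
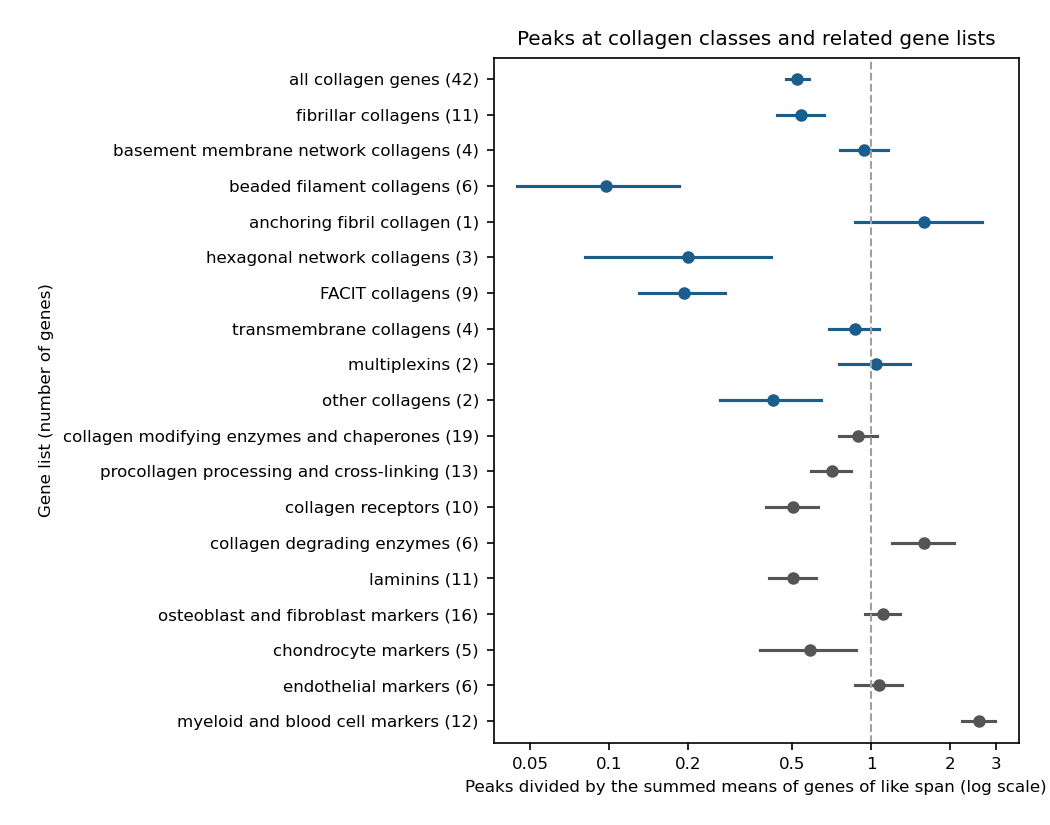
Peaks at each collagen class (blue) and at related gene lists (grey), divided by the summed means of genes of like span, with exact Poisson intervals on a log scale and the number of genes in brackets. Beaded filament collagens sit lowest at 0.0975, and the myeloid and blood cell markers sit highest at 2.57.

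By density, the collagen genes with at least 5 peaks ran from Col11a2 at 0.864 peaks per kb of body to Col25a1 at 0.0238. After Col17a1 came Col4a2 with 0.359, Col1a1 with 0.357, Col4a1 with 0.306, Col15a1 with 0.284 and Col7a1 with 0.256. Col16a1 had 0.214, Col5a3 0.200 and Col5a1 0.176. Over all 42 bodies together the density was 0.0705 per kb, against 0.136 per kb over all autosomal protein-coding genes.

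Inside the gene bodies, the 3′ part held the most peaks. The RefSeq windows give a strand for 33 of the genes, and 27 of these held 313 body peaks. Cut into parts of equal length, the 5′ part held 77 peaks (24.6%), the middle part 97 (31.0%) and the 3′ part 139 (44.4%). Over all 11343 autosomal protein-coding genes with a strand and a body peak the shares were 34.7%, 31.4% and 33.9%. Those genes are of every span and were not matched to the collagens in length. Of the 14 oriented collagen genes with at least 5 body peaks, 10 had more in the 3′ than in the 5′ part. Of the others, 3 had fewer and 1 had as many. Among all such autosomal protein-coding genes, again of every span, 43.8% had more. Col23a1 weighed most in the collagen shares, with 33 of its 38 body peaks in the 3′ part, 2 in the middle and 3 in the 5′ part. Without Col23a1, a calculation chosen after seeing the data, the shares were 26.9% in the 5′ part, 34.5% in the middle and 38.5% in the 3′ part of 275 peaks. Col15a1 had 17, 8 and 5 in the same order, and Col17a1 10, 6 and 2. The first peak of Col23a1 lay 26.5% along its span and that of Col15a1 18.3% along. Col4a2 was more even, with 14 peaks in the 3′ part, 22 in the middle and 13 in the 5′ part, as was Col11a2 with 7, 10 and 7. Col25a1 had 1, 6 and 3 and Col5a3 1, 6 and 2.

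**Figure D3:**
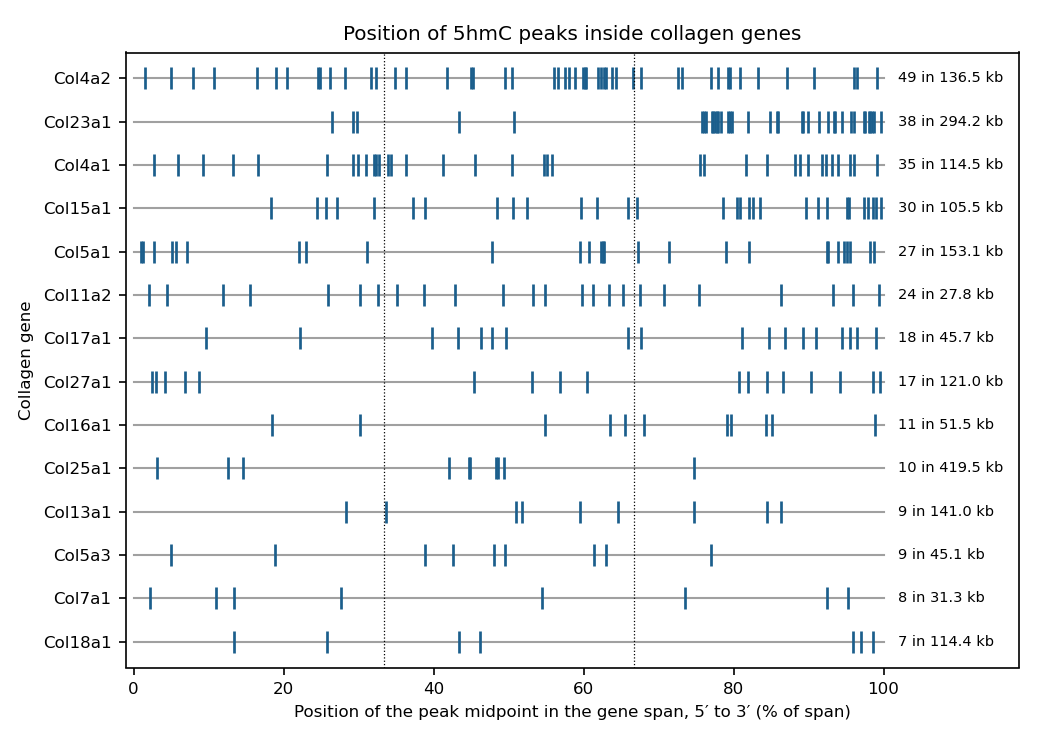
Midpoints of the peaks (blue ticks) inside the 14 oriented collagen genes with at least 5 body peaks, as a percentage of the span from the 5′ to the 3′ end, with dotted lines between the parts of equal length and the number of peaks and the span at the right. Col23a1 has 33 of 38 ticks in the 3′ part, and Col4a2 and Col11a2 have ticks along the whole span.

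Few peaks lay right at the starts. Of the 36 start windows of the 33 genes, 1 (Col18a1) overlapped a peak, against 4.77% of the windows of all autosomal protein-coding genes, and with so few windows nothing is read from this count. Within 2 kb of a start, 8 of the 33 genes had a peak midpoint, where 48.6% of all genes with a window did. That share is over genes of every span, most of them shorter than the collagens. Those 8 were Col11a2, Col5a1, Col8a2, Col27a1, Col9a2, Col6a4, Col7a1 and Col18a1.

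The 5 peaks whose bases could be read are printed next. They lie within a start window of the RefSeq table, either that of a collagen gene or that of a long non-coding RNA gene inside one, and the peak is in capitals with up to 40 bases on each side. Peak ends are rounded in the deposited list, to between 1 and 16 bp depending on the position, so the edges are approximate. The Col18a1 peak (chr10:77113744-77113808) lies at an inner start, 65 bases with 1 CpG. For Col5a1 it is 1 of 27 peaks (chr2:28032670-28032690, in the window of Gm13372), 21 bases with 1 CpG. For Col24a1 it is the only peak of the gene (chr3:145392080-145392112, in the window of Gm35133), 33 bases with 1 CpG. The Col26a1 peak (chr5:136870416-136870512, in the window of Gm20485) has 97 bases with 1 CpG. These 4 are given on the minus strand. The Col4a1 peak (chr8:11279387-11279461) reaches past the window of Gm32709 on the plus strand, which holds 46 of its 75 bases, with 3 CpG.
Col18a1 peak: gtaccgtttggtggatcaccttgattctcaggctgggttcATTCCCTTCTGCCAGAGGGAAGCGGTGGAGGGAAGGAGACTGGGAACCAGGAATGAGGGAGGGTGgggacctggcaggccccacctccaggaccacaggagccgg
Col5a1 peak: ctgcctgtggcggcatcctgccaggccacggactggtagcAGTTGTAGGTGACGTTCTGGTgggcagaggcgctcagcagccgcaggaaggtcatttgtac
Col24a1 peak: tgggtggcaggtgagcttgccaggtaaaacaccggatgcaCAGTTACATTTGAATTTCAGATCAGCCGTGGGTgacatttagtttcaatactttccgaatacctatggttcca
Col26a1 peak: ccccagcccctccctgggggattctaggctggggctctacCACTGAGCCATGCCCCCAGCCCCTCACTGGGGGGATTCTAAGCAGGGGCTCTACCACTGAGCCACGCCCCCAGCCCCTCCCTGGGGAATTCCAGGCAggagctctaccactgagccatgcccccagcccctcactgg
Col4a1 peak: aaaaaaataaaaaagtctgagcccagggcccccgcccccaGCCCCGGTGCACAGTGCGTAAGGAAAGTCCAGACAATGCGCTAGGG
G or C made up 60% of the bases shown in capitals for Col18a1, 47.6% for Col5a1, 42.4% for Col24a1, 67.0% for Col26a1 and 60.9% for Col4a1. The 391 peaks at collagen genes had a median width of 65 bp, as did all peaks of the list.

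Collagen genes with many peaks lay in surroundings with many peaks. In the 500 kb on each side, the 13 genes with 10 or more peaks had a median of 234 peaks per Mb (110 to 361). The 8 genes with 0 had a median of 28.5 per Mb (0 to 105). Genes with few peaks did not all have poor flanks: Col2a1, with 4 peaks, had 256 per Mb, and Col6a4, with 3, had 218. Across the 42 genes, the share of genes of like span with fewer peaks and the flank density had a Spearman correlation of 0.741. Neighbouring collagen genes share flanks, and this value is given as a description. It was not computed over all autosomal protein-coding genes, so it is not read as particular to collagens. The 500 kb flanks begin at the ends of the span and so include the 5 kb margins. Most genes, counted with those margins, were poorer than their flanks: 10 of the 42 were denser than their 500 kb flanks. Of all autosomal protein-coding genes, which are of every span and were not matched in length, 46.7% were. The 10 collagen genes were Col11a2, Col17a1, Col7a1, Col15a1, Col4a2, Col1a1, Col8a2, Col16a1, Col9a2 and Col22a1. Col26a1 had the richest flanks of all, 361 per Mb, and 119 per Mb in its own window.

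**Figure D4:**
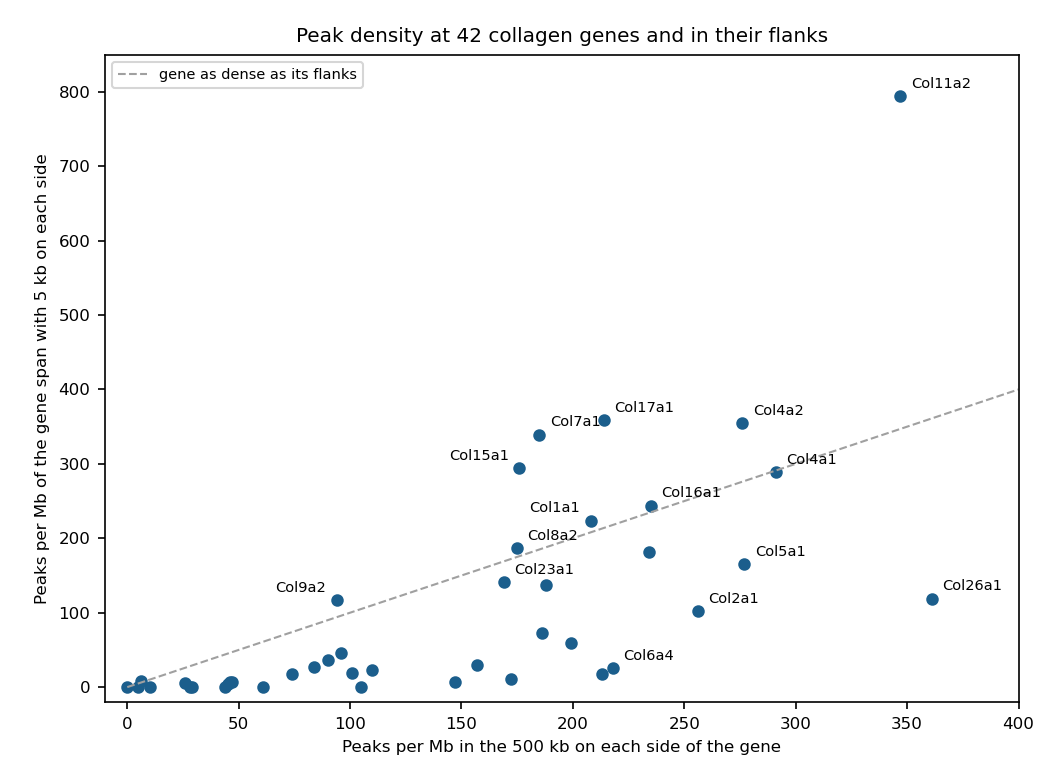
Peaks per Mb in the span of each of the 42 collagen genes with 5 kb on each side, against peaks per Mb in the 500 kb on each side of the gene. The dashed line marks equal density. Col11a2 stands highest, at 794 per Mb with flanks of 347 per Mb, 31 of the 42 genes lie below the line, and Col11a1 lies on it at 0 for both.

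With comparison genes alike in both span and flank density, the summed ratio moved little and many single genes changed sides. The summed ratio was 0.504 against 0.522 with span alone, and 11 genes were above the median of their comparison genes against 15, with 8 above by both. The 7 that were above by span alone were Col1a1, Col5a1, Col8a2, Col25a1, Col26a1 and Col27a1, now below, and Col5a3, now equal to it. The 3 that came to lie above were Col9a2, Col19a1 and Col22a1, with 3, 2 and 3 peaks against medians of 2, 1 and 1. For the genes with 0 peaks, the median at comparison genes was 0 for Col10a1, 1 for Col9a1 and Col3a1, 1.5 for Col11a1, 3 for Col5a2, 4 for Col1a2, 8 for Col12a1 and 16 for Col8a1. At Col8a1 94.5% of the comparison genes had a peak, and at Col12a1 89.5%. Col5a1, above its genes of like span, had 27 peaks against a median of 30 here.

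Genes that act on collagen were counted in the same way. The 4 lists of enzymes, receptors and proteases held a peak at 44 of 48 genes (91.7%), where 84.0% of their genes of like span and 76.1% of all genes had one. They had a ratio of 0.762 (exact Poisson interval 0.691 to 0.839), with 23 above and 21 below the median of genes of like span. The list of enzymes and chaperones that modify the chains in the cell had a peak at 18 of 19 genes (94.7%, against 83.1% of genes of like span) and a ratio of 0.893 (exact Poisson interval 0.756 to 1.05). Of the 19, 12 were above the median of genes of like span and 6 below, where all genes gave 44.9% above and 43.5% below. Plod3, a lysyl hydroxylase, had 17 peaks, Crtap and P3h3, of prolyl 3-hydroxylation, 14 each, and the prolyl 4-hydroxylase genes P4hb, P4ha1 and P4ha2 had 12, 10 and 10. Plod2 was the only one with 0. Procollagen processing and cross-linking genes had a peak at 11 of 13 (84.6%, against 84.7% of genes of like span), with 54 at Loxl2, 23 at Adamts14 and 17 at Loxl3, and with 0 at Lox and Tll1. Of these, 4 were above and 8 below the median of genes of like span. Their ratio was 0.705 (0.590 to 0.837), and 0.455 (0.360 to 0.568) without Loxl2.

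All 10 collagen receptor genes had a peak, as did 88.0% of their genes of like span, led by the integrin genes Itga2 with 19 and Itga1 with 15 and by the leukocyte inhibitory receptor gene Lair1 with 11. Their ratio was 0.502 (exact Poisson interval 0.396 to 0.627), with 3 above and 6 below the median of genes of like span. Among the 6 genes of collagen-degrading enzymes 5 had a peak (83.3%, against 78.8% of genes of like span), and 4 were above and 1 below the median. The ratio was 1.60 (1.20 to 2.08), and 1.31 (0.928 to 1.80) without Mmp14. In that list Mmp14 had 17 peaks, the neutrophil gelatinase gene Mmp9 14, Mmp2 11, the neutrophil collagenase gene Mmp8 9 and the osteoclast protease gene Ctsk 4, with 0 at Mmp13. The 11 laminin genes, the other main family of basement membranes, carried one in 10 cases (90.9%, against 89.0% of genes of like span), 3 above and 8 below the median, with a ratio of 0.503 (0.408 to 0.613). Lama5 had 24, Lamb3 23, Lamb2 and Lama3 12 each and Lama1 0.

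Lists of marrow cell markers were counted in the same way. They were chosen with earlier results of these data known, so their values are given only as a description. All 12 myeloid and blood cell markers had a peak, where 72.2% of their genes of like span did. All were above the median of genes of like span, where 44.9% of all autosomal protein-coding genes were. For S100a8, of 0.964 kb, that median was 0, so any peak places it above. The same holds for Bglap, of 0.972 kb, among the osteoblast and fibroblast markers. The 12 markers had 5 to 34 peaks each and a ratio of 2.57 (exact Poisson interval 2.22 to 2.96). At short ones most peaks lay in the 5 kb margins: inside the span were 2 of 11 at Elane and 1 of 7 at Cebpa and at Cebpe. At longer ones more lay inside, with 25 of 34 at Spi1 and at Csf1r and all 19 at Ptprc. Flank density was not matched for the marker lists. Spi1 and Csf1r had 34 each and Itgam 33. Of the 16 osteoblast and fibroblast markers 11 had a peak (68.8%, against 80.1% of genes of like span), 6 were above and 9 below the median, with 96 at Runx2, which blood progenitors also express, 24 at Pdgfrb and 11 each at Acta2, Alpl and Fn1. None was listed at Cxcl12, Dcn, Lepr, Lum or Postn. The ratio was 1.11 (0.949 to 1.28), and 0.622 (0.491 to 0.776) without Runx2. Leaving out the leading gene of a list was chosen after seeing the data. Dropping the gene with the most peaks lowered the ratio of every class and list tried, largely by construction. No deficit in the remaining genes is read from the lower values. Chondrocyte markers had a peak at 3 of 5 (60%, against 81.2% of genes of like span), and 2 were above and 3 below the median. Comp had 13 peaks, Matn1 10, Hapln1 1, and Sox9 and Acan 0. The ratio was 0.586 (0.376 to 0.872), and 0.306 (0.153 to 0.547) without Comp. Endothelial markers had one at 4 of 6 (66.7%, against 89.2% of genes of like span). Of the 6, 4 were above and 2 below the median of genes of like span. Pecam1, which leukocytes and platelets also carry, had 50 peaks, Eng 19 and Cdh5 15, with 0 at Tek and Emcn. The ratio was 1.07 (0.865 to 1.31), and 0.580 (0.420 to 0.782) without Pecam1. The part that stromal, cartilage or vessel cells play in the collagen peaks was not tested.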

How the data were processed

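5hmC was captured from sonicated bone marrow DNA by glucosyl tagging and biotin, per the labels' protocols. The build is mm10, per the submitters' processing notes, and no source used here names the aligner. Peaks were called with PICS, per the file headers, with a read length of 99 bp, 200 bp fragments, a window of 250 bp that slides by 20 bp, and a minimum forward and reverse read count of 3 in a window and 10 in a region. The deposited lists give only a chromosome, start and end, so depth and precision per peak are unknown, and no score cutoff could be applied.

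From these, 14799 lines that repeat an earlier line were dropped. Gene spans came from RefSeq GRCm38.p6 (mm10 chromosomes), models starting below 3 Mb were left out, and the table gives no exons. Like-span genes were the 200 nearest in log span. Counting was tested on simulated data with known answers. Intervals are exact Poisson at 95%. Members and lists were chosen with earlier results of these data known. The genes named were every member, the 10 with the most peaks and the 10 densest with 5 or more, those beyond the 10th or 90th percentile, and of the other lists the leading 3 and those with none; further genes of the enzyme, receptor and protease lists were named after their values were seen. Python 3.11.15, numpy 2.4.6, pandas 2.3.3 and scipy 1.17.1 were used.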

Additional observations from a re-analysis of the deposited data

How the results depend on the processing

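Under 10 alternatives (gene body only, 10 kb margins, repeated lines kept, peaks inside other protein-coding genes left out, any overlap in place of the midpoint, 1 gene per overlapping group, 50 or 500 genes of like span, olfactory, vomeronasal, Gm and Rik genes left out, and flank density matched), the number of collagen genes with a peak was 32 to 35, against 34. The number above the median of genes of like span was 11 to 15, against 15, lowest with flank density matched. The summed ratio was 0.487 (repeated lines kept) to 0.549 (10 kb margins), against 0.522. Of the alternatives chosen after seeing the data, leaving out Col23a1 gave 38.5% of body peaks in the 3′ part, against 44.4%, and leaving out the gene with the most peaks moved the ratio by over 1.5 times for the FACIT, basement membrane, multiplexin, hexagonal and other collagens (the last 3 are classes of 2 or 3 genes) and for the processing, osteoblast, chondrocyte and endothelial lists. With flank density matched, 7 genes were no longer above the median and 3 others were. None of the 3 results over all collagen genes moved by over 1.5 times or changed direction under the 10 alternatives. Leaving out replicate 1 or 2 gave 34, 15 and 0.522 again because the lists are identical, which says nothing about stability. No score cutoff was tried, since the lists hold none. No paired analysis was possible because the result comes from no test and normal marrow has no replicate number. Depth is unknown, so a peak missed for want of reads cannot be told from a site without 5hmC. Nor can it be told from a site equal in the control library. The Poisson intervals are too narrow where peaks cluster.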
